A study of Capra hircus with 4 samples.

Results

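The genes described are 10 regulators and markers of the vessel lining, chosen by symbol from the 27137 genes of a goat pancreas single-cell dataset: KDR, FLT1, TEK, TIE1, ANGPT2, NOS3, SOX18, ERG, FLI1 and PLVAP. All 10 were found. Pancreas was taken from Liuyang black goats, 2 females aged 6 months and 2 aged 10 days, said to be twins, described by the submitters as ruminating and non-ruminating, and dissociated cells were run as 3′ droplet libraries. The barcodes carry library numbers 1 to 4, which no source used here ties to an animal or an age, so every value is given by library and no age comparison was made. Dissociation, lysis of red cells and removal of dead cells came before capture, so shares of cells are those of the suspension. The levels given are counts of a gene (unique molecular identifiers, UMIs) per 1000000 UMIs of a class of cells (CPM).

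Endothelial cells line blood and lymphatic vessels. VEGF ligands made by the surrounding tissue act on them through the receptors KDR and FLT1, and angiopoietins act through TEK with its partner TIE1. The ETS factors ERG and FLI1 and the SOX factor SOX18 hold up endothelial gene expression, NOS3 makes nitric oxide, and PLVAP builds the diaphragms that close the pores of fenestrated capillaries, the kind found in the pancreatic islet.

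After filtering, the libraries held 2746 to 3902 cells each, with a median of 6157 to 8765 UMIs a cell. Pairs of libraries shared 0 to 6 barcodes. Cells were grouped without the 10 genes and named from other markers, which left 126 blood endothelial-like and 141 lymphatic endothelial-like cells among 12741. Blood endothelial-like cells numbered 42, 51, 27 and 6 in libraries 1 to 4, and lymphatic endothelial-like cells 55, 28, 8 and 50. Among the markers that gave the names, VWF stood at 1595 CPM in blood and 165 CPM in lymphatic endothelial-like cells, and CCL21 at 2.90 and 12376 CPM. A further 65 cells carried endothelial genes together with markers of acinar cells, or of fibroblasts and smooth muscle, and were set aside. Summed markers of other lineages were present in the cells kept: acinar markers reached 339 to 1865 CPM in blood and 224 to 3278 CPM in lymphatic endothelial-like cells, and endocrine markers 1100 to 2249 CPM and 968 to 14929 CPM, the last in library 1. Stellate and fibroblast markers summed to 388 to 2878 CPM in blood, highest in library 2, and 152 to 888 CPM in lymphatic cells, immune markers to 746 to 1416 CPM and 221 to 408 CPM, and pericyte and smooth muscle markers to 68.5 to 993 CPM and 4.76 to 43.2 CPM. Their part in the levels below was not tested.

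Every one of the 10 genes had a higher level in endothelial-like cells, blood and lymphatic together, than in all other cells in each of the 4 libraries. A gene was called when its log2 ratio of CPM + 1 reached 1 in every library used and the class with the higher level held 20 counts or more in each, and 8 of the 10 genes were called higher and 0 lower. Among all 13308 genes measured in this way 3.68% were called higher and 7.89% lower in endothelial-like cells. Since these classes are endothelial by their other genes, the count describes the genes and tests nothing. FLT1 (median log2 ratio 7.17) and ANGPT2 (5.50) passed in direction in all 4 libraries but had under 20 counts in one. For the genes called, the median log2 ratio was 9.06 for PLVAP, 8.74 for SOX18, 7.80 for KDR, 6.73 for TIE1, 6.35 for NOS3, 6.24 for TEK, 5.99 for ERG and 4.70 for FLI1. The median over all genes measured was 0.40.

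The genes differed in how much of their signal lay in these 267 cells. With the 65 mixed cells left out, blood and lymphatic endothelial-like cells held 95.4% of all SOX18 counts, 94.1% of PLVAP counts and 92.3% of FLT1 counts, but 25.4% of FLI1 counts. The other 6 genes lay between 62.5% (ERG) and 80.2% (KDR). With the mixed cells counted among the rest, the SOX18 share was 78.1%. With every cell thinned to 3000 UMIs, a blood endothelial-like cell showed a median of 5 of the 10 genes, a lymphatic one 3, and every other class 0. At least 3 of the genes were seen in 93.7% of blood and 65.2% of lymphatic endothelial-like cells, and in 0 of 4995 stellate-like cells (95% exact upper limit 0.0738%).

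**Figure D1:**
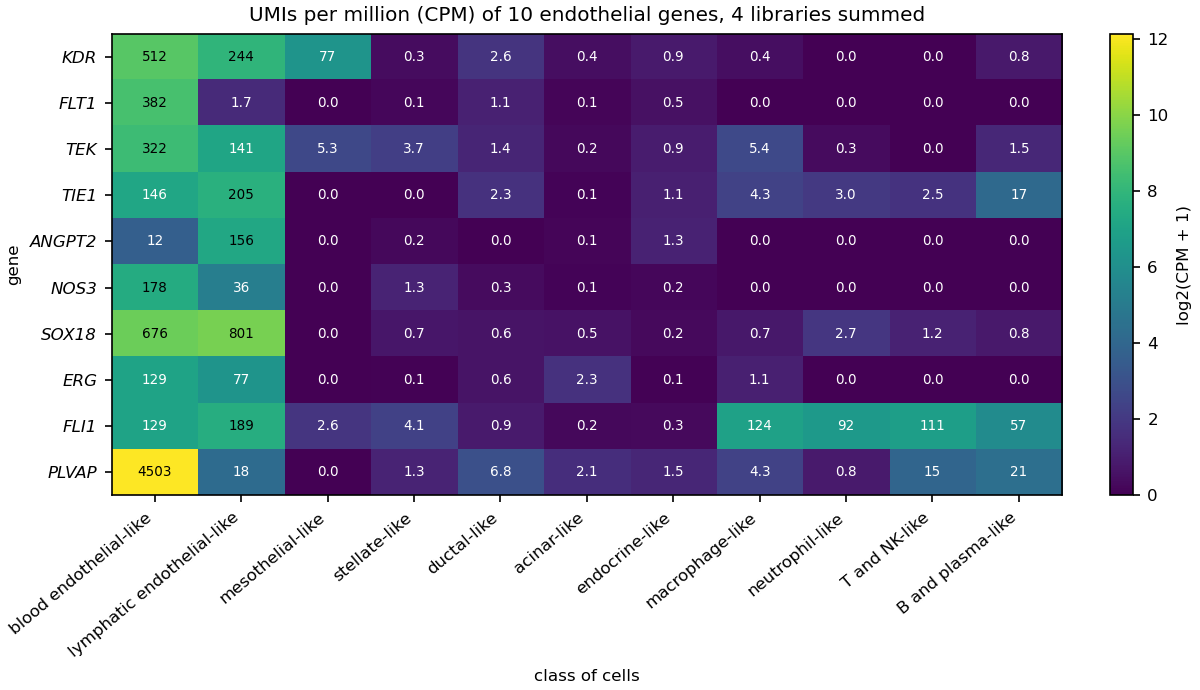
Each cell gives the level in CPM of a gene (rows) in a class of cells (columns), libraries summed, coloured by log2(CPM + 1). The blood and lymphatic columns hold the high values, FLI1 also stands at 57.2 to 124 CPM in the 4 immune-like classes, and KDR at 77.2 CPM in mesothelial-like cells.

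The 2 VEGF receptors parted between the vessel types. KDR, the main signalling receptor for VEGFA, had 781, 409, 509 and 121 CPM in blood endothelial-like cells of libraries 1 to 4, against 271, 187, 338 and 249 CPM in lymphatic endothelial-like cells. It was higher in the blood cells of libraries 1 to 3 and lower in library 4, where the blood value rests on 5 counts in 6 cells. FLT1, which binds VEGFA tightly and signals weakly, had 607, 293, 334 and 363 CPM in blood endothelial-like cells. In lymphatic endothelial-like cells it had 2.38, 0, 0 and 2.70 CPM, which is 2 counts in 141 cells. FLT1 was higher in blood within every library, and in library 2, where no lymphatic count was seen, the blood level was at least 30.8-fold higher against a floor of 3 counts.

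Blood and lymphatic endothelial-like cells were compared in the 2 libraries with at least 10 cells of each, libraries 1 and 2, with a minimum of 10 counts. In that comparison 6.79% of 5878 genes were called higher and 7.69% lower in blood, and of the 10 genes 4 were called higher and 1 lower. KDR was called higher with a median log2 ratio of 1.32, and its ratio of levels was 2.88 (95% exact interval 2.27 to 3.65) in library 1 and 2.19 (1.64 to 2.98) in library 2. FLT1 was called higher with a median log2 ratio of 7.84. The intervals cover counting error only, and with 2 libraries there is no test. When all barcodes of at least 1000 UMIs were kept, 3 libraries had enough cells, and FLT1 and PLVAP were called higher and ANGPT2 lower, where 6.35% of 4854 genes were called higher and 4.16% lower. KDR was higher in blood in each of these libraries (log2 ratio 2.57, 1.48 and 0.62 in libraries 1, 2 and 3). It lost its call because the ratio of library 3 lay under the threshold. In that setting a sub-cluster with 134 cells of library 1 raised 7 lymphatic markers but also 0.667 of the acinar markers. It was set aside as mixed, so library 1 kept 29 lymphatic endothelial-like cells in place of 55. KDR stood at 375 CPM in the 134 cells set aside and at 219 CPM in the 29 kept.

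The angiopoietin receptors were present in both vessel types. TEK had 390, 318, 235 and 436 CPM in blood endothelial-like cells, against 129, 187, 190 and 111 CPM in lymphatic ones. These levels did not overlap, but the share of all genes without overlap is not given. In library 3 the TEK ratio of levels was 1.24 (exact interval 0.61 to 2.85), on 9 lymphatic counts. That interval includes no difference. In library 4 the ratio was 3.93 (2.13 to 7.00), on 18 blood counts. In library 2 the log2 ratio was 0.77, under the threshold, so TEK was not called (median 1.18). TIE1, a receptor with no ligand of its own that modulates TEK, had 126, 142, 167 and 194 CPM in blood and 138, 225, 338 and 249 CPM in lymphatic endothelial-like cells. Its median log2 ratio was -0.39 and it was not called.

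ANGPT2, a secreted TEK ligand that endothelial cells store and release, had the opposite pattern to FLT1. It had 7.89, 15.8, 8.56 and 0 CPM in blood endothelial-like cells, 12 counts in all, against 224, 127, 233 and 94.6 CPM in lymphatic ones, 180 counts in all. Blood was below lymphatic in every library, and ANGPT2 was the gene of the 10 called lower in blood (median log2 ratio -3.79). The call also held with barcodes of at least 1000 UMIs (median -3.76 over 3 libraries). There the 29 lymphatic cells kept in library 1 had 428 CPM of ANGPT2, against 115 CPM in the 134 set aside as mixed. Of these 29 cells, 16 lay in the sub-cluster with NEO1 described below. Endocrine-like cells, whose markers were highest in the lymphatic cells of library 1, held 1.26 CPM of ANGPT2. Their part in the lymphatic level was not tested.

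The 3 transcription factors were shared by the vessel types. SOX18 had 1088, 597, 415 and 581 CPM in blood and 848, 1025, 634 and 578 CPM in lymphatic endothelial-like cells, with blood higher in libraries 1 and 4 and lower in libraries 2 and 3. In mice SOX18 starts the lymphatic program, and here its median log2 ratio was -0.21 with no call. ERG had 142, 127, 120 and 121 CPM in blood, against 69.1, 56.9, 84.6 and 103 CPM in lymphatic endothelial-like cells. These levels did not overlap, but the share of all genes without overlap is not given. The ERG ratio of levels was 1.42 (0.50 to 5.56) in library 3, on 4 lymphatic counts. In library 4 it was 1.18 (0.36 to 3.00), on 5 blood counts. Both intervals include no difference. ERG was called higher in blood by a small margin (log2 ratio 1.03 and 1.14), and the call was lost with a pseudocount of 10 (0.99) and with barcodes of at least 1000 UMIs (median 0.75, with 1 of 3 libraries at -0.06). FLI1 had 138, 150, 81.3 and 72.7 CPM in blood and 241, 180, 106 and 149 CPM in lymphatic endothelial-like cells, lower in blood within every library, with a median log2 ratio of -0.53 and no call. Its ratio of levels was 0.57 (0.38 to 0.85) in library 1 and 0.83 (0.58 to 1.20) in library 2. It was 0.77 (0.28 to 2.64) in library 3, on 5 lymphatic counts, and 0.49 (0.098 to 1.51) in library 4, on 3 blood counts.

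PLVAP separated the vessel types in every library, while the NOS3 ratio varied between libraries. PLVAP had 9409, 2637, 3309 and 3972 CPM in blood endothelial-like cells, against 9.53, 28.5, 21.1 and 18.9 CPM in lymphatic ones, and was called higher (median log2 ratio 8.14). It was seen in 94.4% of blood endothelial-like cells, against 0.521% of stellate-like cells, whose median depths ran from 5510.5 to 8254 and from 4885.5 to 8054.5 UMIs across libraries. Free RNA, read from barcodes of 10 to 100 UMIs, held 122, 59.7, 11.7 and 2.30 CPM of PLVAP, so the lymphatic values of libraries 1 and 2 lie under the free RNA of their own library. NOS3 had 221, 133, 158 and 581 CPM in blood and 9.53, 72.8, 148 and 18.9 CPM in lymphatic endothelial-like cells. The ratio was 23.2 in library 1 and 30.7 in library 4, but 1.82 in library 2 and 1.07 in library 3, and NOS3 was not called (log2 ratio 0.86 in library 2).

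Within endothelial-like cells, the members divided further. Re-clustering gave 4 blood and 4 lymphatic sub-clusters, named here by a leading gene. Among the blood sub-clusters, the one with GJA5, a connexin of arteries, among its leading genes had 30 cells and the lowest KDR level, 46.4 CPM. LOC102188010 and LOC102173852, leading genes of macrophage-like cells too, were also among its leading genes. KDR stood at 357 CPM in the sub-cluster with ACKR1, a chemokine receptor of venules (60 cells, with cell-cycle genes among their leading genes), at 1459 CPM in the sub-cluster led by CA4, a capillary carbonic anhydrase (20 cells), and at 1274 CPM in a sub-cluster of 15 cells with 1162 CPM of ESM1, a gene of sprouting tip cells, which also stood at 1150 CPM in the CA4 sub-cluster.

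FLT1 was ordered in the same way, at 173, 307, 927 and 651 CPM in the GJA5, ACKR1, CA4 and ESM1 sub-clusters, and PLVAP at 1750, 3462, 15040 and 4806 CPM. NOS3 was instead highest in the GJA5 sub-cluster, at 422 CPM, with 111, 103 and 83.7 CPM in the ACKR1, CA4 and ESM1 sub-clusters. TEK was 485, 258, 412 and 214 CPM in that order. The CA4 sub-cluster came almost wholly from library 1 (19 of 20 cells) and the ESM1 sub-cluster from libraries 2 and 3, but the KDR differences were also seen within a library. In library 1, KDR stood at 1539 CPM (95% exact interval 1315 to 1790) in the CA4, 549 CPM (352 to 817) in the ACKR1 and 59.6 CPM (21.9 to 130) in the GJA5 sub-cluster. In library 2, it stood at 1156 CPM (947 to 1399) in the ESM1, 299.8 CPM (240.4 to 369) in the ACKR1 and 35.3 CPM (9.61 to 90.3) in the GJA5 sub-cluster, and the intervals did not overlap within either library. Within the ACKR1 sub-cluster, which 3 libraries shared, PLVAP still stood at 10046 CPM in the 7 cells of library 1, against 2602 CPM in library 2 and 3112 CPM in library 3. With barcodes of at least 1000 UMIs, a GJA5 sub-cluster of 26 cells again had low KDR (63.3 CPM) and high NOS3 (548 CPM), and a CA4 sub-cluster of 76 cells, 75 from library 1, had 2076 CPM of KDR and 16215 CPM of PLVAP. In that setting KDR was lower still, at 9.36 CPM, in a sub-cluster of 19 cells led by PAPPA2, all from library 2.

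**Figure D2:**
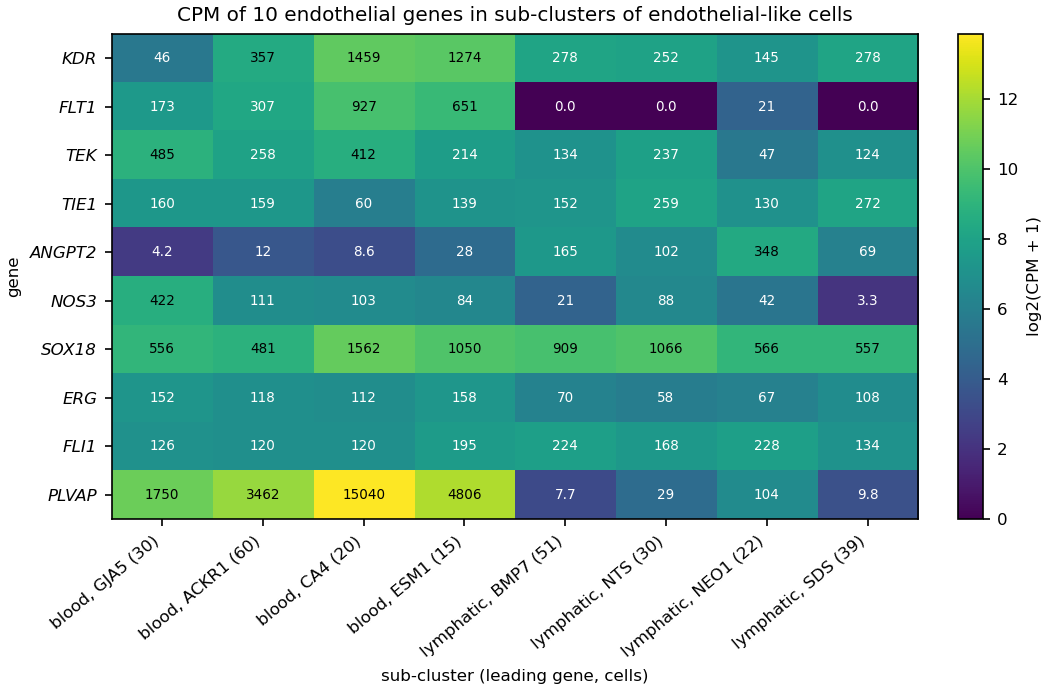
Each cell gives the CPM of a gene (rows) in a sub-cluster of endothelial-like cells (columns, named by a gene among its leading ones, with the number of cells), coloured by log2(CPM + 1). KDR and PLVAP are highest in the CA4 sub-cluster, NOS3 in the GJA5 sub-cluster and ANGPT2 in the lymphatic NEO1 sub-cluster.

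ANGPT2 was uneven among the lymphatic cells. A sub-cluster of 22 cells led by NEO1 and TUBB4A held 348 CPM of ANGPT2, against 165, 102 and 68.7 CPM in the 3 others, which came mainly from library 1, from libraries 2 and 3, and from library 4. The one from library 1 was led by the islet genes PPY and RESP18, with LYVE1 and RELN as its raised lymphatic markers. The one from library 4 raised 6 lymphatic markers and 0.375 of the immune markers. Its leading genes included SDS and the neutrophil markers CXCL8 and S100A9. The NEO1 sub-cluster was spread over libraries 1, 2 and 4, and its ANGPT2 level was 531, 245 and 297 CPM there. It also differed in genes other than the 10: PROX1, the factor that sets lymphatic identity, stood at 2528 CPM, FOXC2, a factor of lymphatic valves in mice, at 156 CPM, and LYVE1 and CCL21, markers of lymphatic capillaries, at 177 and 72.7 CPM, where the other 3 sub-clusters had 1413 to 4570 CPM of LYVE1. TEK was lowest there, at 46.7 CPM, against 124 to 237 CPM in the other lymphatic sub-clusters. These cells raised 0.4 of the endocrine markers, under the limit of 0.5 set for exclusion, and its part in the result was not tested. With barcodes of at least 1000 UMIs the sub-cluster had 55 cells, with 367 CPM of ANGPT2, 54.4 CPM of TEK, 2273 CPM of PROX1 and 139 CPM of FOXC2, and raised at most 0.125 of any other lineage's markers. With the automatic doublet threshold, by contrast, the sub-cluster holding NEO1 and TUBB4A among its leading genes had 29 cells, was led by PCSK1 and INS, raised 0.733 of the endocrine markers and was set aside as mixed, so its place as a lymphatic sub-cluster depended on the doublet rule.

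Outside endothelial-like cells, FLI1 had the widest reach. In human and mouse FLI1 is also a factor of blood cells, and it stood at 124 CPM in macrophage-like, 111 CPM in T and NK-like, 92.5 CPM in neutrophil-like and 57.2 CPM in B and plasma-like cells, beside 129 CPM in blood and 189 CPM in lymphatic endothelial-like cells. Macrophage-like cells had 96.1, 90.3, 121 and 140 CPM in libraries 1 to 4, where free RNA had 6.57, 3.41, 0 and 9.18 CPM. After thinning, 30.6% of macrophage-like and 37.6% of lymphatic endothelial-like cells had a FLI1 UMI, against 1.26% of stellate-like cells. Against all other non-endothelial cells, immune-like cells were higher in FLI1 in 4 of 4 libraries (median log2 ratio 5.04, range 4.56 to 5.91), with under 20 counts in library 2, so 0 of the 10 genes were called, where 4.35% of all 13048 genes measured were called higher and 12.6% lower. Leaving out library 2 called FLI1 (4.78).

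**Figure D3:**
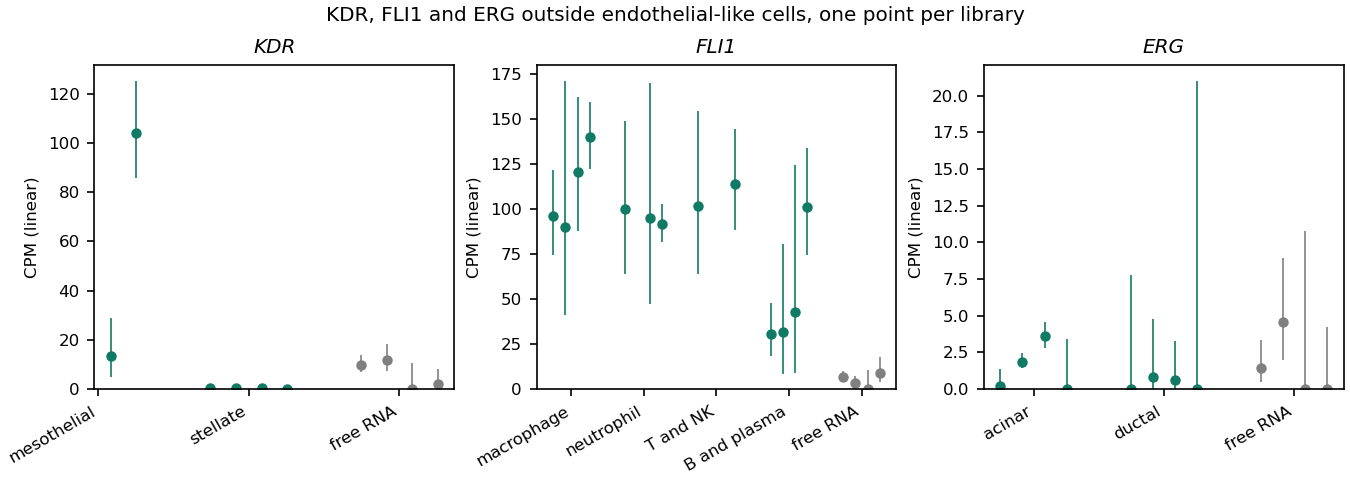
Points give the CPM of KDR, FLI1 and ERG by library in classes of at least 10 cells (green) and in free RNA (grey, barcodes of 10 to 100 UMIs), from left to right in library order within each class, with 95% exact Poisson intervals. Mesothelial-like KDR in library 4 (104 CPM) and FLI1 in the immune-like classes lie above free RNA, while the 3.60 CPM of ERG in acinar-like cells of library 3 is within what 0 free-RNA counts allow there.

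KDR was also present in mesothelial-like cells, which cover the organ's surface and came from libraries 3 and 4. It stood at 13.4 CPM in the 32 cells of library 3 and at 104 CPM in the 96 cells of library 4, and 45 of all 128 cells had a UMI. Free RNA held 0 KDR counts in library 3, which allows up to 8.78 CPM at a floor of 3 counts (95% exact upper limit 10.8 CPM), and 2.30 CPM in library 4. In the same cells FLT1, TIE1, ANGPT2, NOS3, SOX18, ERG and PLVAP had 0 counts, as did the endothelial genes VWF and CD93. CDH5 stood at 1.32 CPM, CLDN5 at 2.64 CPM and PECAM1 at 5.94 CPM. TEK had 8 counts in these cells and FLI1 4. The source of the KDR counts was not tested. With barcodes of at least 1000 UMIs the mesothelial-like level was 72.2 CPM.

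In the classes named in the first setting, the other genes had low levels outside the vessels. Pericyte and smooth muscle-like cells were named as a class with barcodes of at least 1000 UMIs (82 cells). In the first setting a sub-cluster led by MYH11 and ACTA2 was set aside as mixed. Its 18 cells of library 2 held 46.9 CPM of ANGPT2, against 15.8 CPM in blood and 127 CPM in lymphatic endothelial-like cells there. They also held 716 CPM of SOX18. The source of the ANGPT2 in these cells and in the class of 82 cells was not tested. TEK reached 3.73 CPM in stellate-like cells (8.08, 2.92, 3.40 and 1.35 CPM by library), beside 8.29, 2.27, 8.78 and 0 CPM in free RNA. TIE1 had 17.0 CPM in B and plasma-like cells (29.5 CPM in library 4, free RNA 2.30 CPM), but 0 counts in the 138 cells of that name with barcodes of at least 1000 UMIs, so the value depended on which cells were grouped. PLVAP had 20.9 CPM in B and plasma-like and 14.8 CPM in T and NK-like cells, in both cases under free RNA (122 CPM) in library 1 and, at 25.3 and 10.1 CPM, above it (2.30 CPM) in library 4. ERG had 122 counts in acinar-like cells, 2.30 CPM, of which 1.87 CPM in library 2 lay under the 4.55 CPM of free RNA. In library 3 it had 3.60 CPM in acinar-like cells, beside 0.11 CPM of CDH5 and 0 ERG counts in 1705 stellate-like cells, and free RNA there held 0 counts, with the same limits.

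The ligands of these receptors differed in where they lay. VEGFA had 5.80 CPM in blood and 12.1 CPM in lymphatic endothelial-like cells, against 138 CPM in ductal-like, 98.3 CPM in endocrine-like, 95.0 CPM in mesothelial-like and 71.8 CPM in stellate-like cells. VEGFA was called lower in endothelial-like cells than in all others (median log2 ratio -3.05), and so was VEGFD (-4.15), a ligand of KDR and FLT4 in human, which stood at 165 CPM in stellate-like cells and 93.4 to 264 CPM across their libraries. VEGFC, the lymphatic growth factor, had 45.5 CPM in blood and 2.60 CPM in lymphatic endothelial-like cells, against 94.4 CPM in stellate-like cells. VEGFB, a FLT1 ligand, was spread over endothelial and other classes, with 49.3 CPM in blood and 96.2 CPM in lymphatic endothelial-like cells, against 127 CPM in mesothelial-like, 90.6 CPM in stellate-like and 74.3 CPM in endocrine-like cells. PGF, another FLT1 ligand, had 0 counts in blood and 7 counts (6.07 CPM) in lymphatic endothelial-like cells, against 2.12 CPM in stellate-like cells. The TEK ligands ANGPT1 and ANGPT4 had their highest levels in stellate-like cells, at 4.99 and 13.0 CPM. KDR itself had 0.32 CPM in stellate-like cells.

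**Figure D4:**
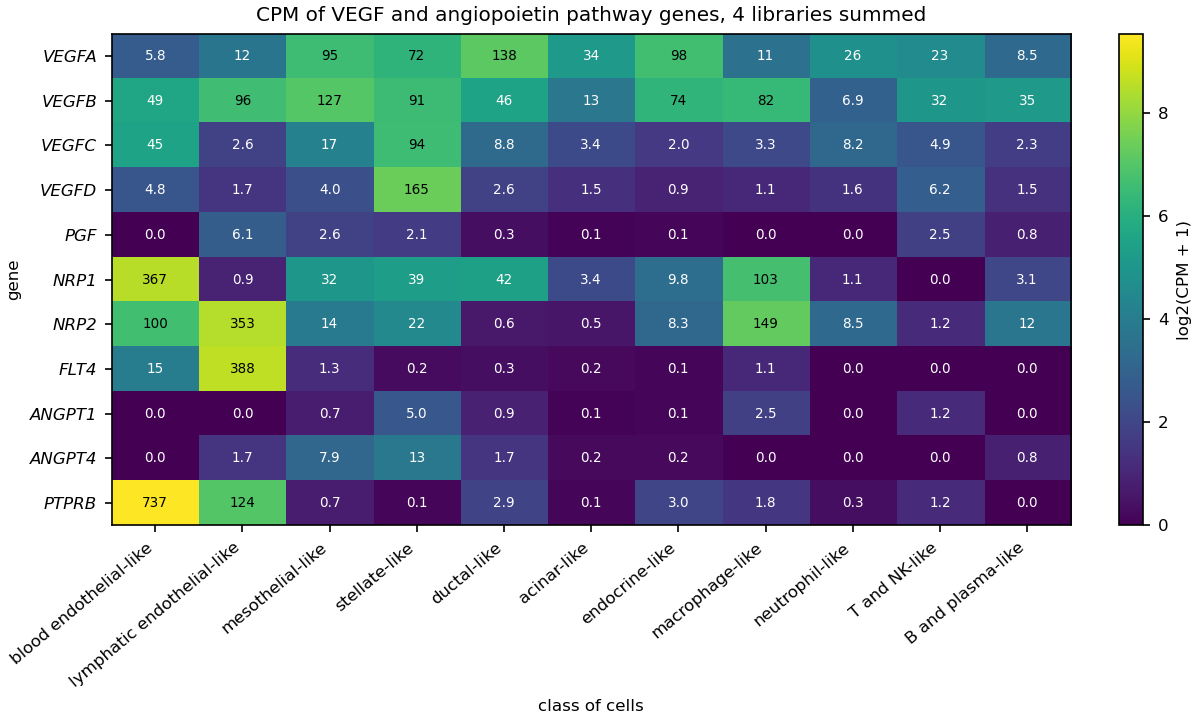
Each cell gives the CPM of a VEGF or angiopoietin pathway gene (rows) in a class of cells (columns), libraries summed, coloured by log2(CPM + 1). VEGFA is spread over ductal-like, endocrine-like, mesothelial-like and stellate-like cells, VEGFC and VEGFD peak in stellate-like cells, and NRP1, NRP2, FLT4 and PTPRB separate blood and lymphatic endothelial-like cells.

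Partners of the receptors were split between the vessel types. NRP1, the VEGFA co-receptor, stood at 485, 366, 278 and 145 CPM in blood and 0, 0, 0 and 2.70 CPM in lymphatic endothelial-like cells, and was called higher in blood (median log2 ratio 8.72). FLT4, the receptor for VEGFC, had 27.6, 13.8, 8.56 and 0 CPM in blood against 310, 364, 740 and 451 CPM in lymphatic endothelial-like cells and was called lower in blood (-4.03). NRP2, its co-receptor, had 78.9, 111, 103 and 72.7 CPM in blood and 231, 316, 486 and 505 CPM in lymphatic endothelial-like cells and was also called lower in blood (-1.52). PTPRB, the phosphatase that turns TEK signalling down, had 710, 851, 458 and 1090 CPM in blood and 133, 88.6, 106 and 146 CPM in lymphatic endothelial-like cells and was called higher in blood (2.83).

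Of 78 genes in 7 lists of vessel pathways, 77 were found. In endothelial-like cells against all others, 59 were measured, 26 were called higher and 2 lower, with a median log2 ratio of 2.80 beside 0.40 for all genes. Among all 13308 genes measured, 3.68% were called higher and 7.89% lower. The VEGF list had 2 of 7 higher, FLT4 (7.15) and NRP2 (4.27), and the 2 lower genes given above, and the angiopoietin list had 2 of 6 higher, including PTPRB (7.63). The list of transcription factors had 7 of 11 measured genes higher, among them LMO2 (5.89), ELK3 (4.69), MEF2C (4.19), ETS1 (3.98) and NR2F2 (3.66), the last a factor of venous and lymphatic identity. Nitric oxide and caveolae genes had 5 of 11 higher, including CAV1 (5.82), CAV2 (4.28) and CAVIN2 (6.26), which build caveolae. Receptors for BMP, TGF-beta and S1P had 4 of 9 higher, including S1PR1 (7.55) and ENG (4.72). Arterial, venous and capillary genes had 4 of 6 higher, with GJA4 at 8.26 and EFNB2 at 5.56. Notch and tip cell genes had 2 of 9 higher, including the receptor NOTCH1.

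Between blood and lymphatic endothelial-like cells, 60 list genes were measured, and 21 were called higher and 9 lower in blood, with a median log2 ratio of 0.0041 beside -0.03 for all genes. Among all 5878 genes measured, 6.79% were called higher and 7.69% lower in blood. Arterial, venous and capillary genes had 7 of 10 higher, among them SELP (7.65), CA4 (7.52), RGCC (6.86), ACKR1 (6.47) and GJA5 (5.08). The CA4 value is the midpoint of 10.54 in library 1 (1483 CPM in blood) and 4.51 in library 2 (21.8 CPM). SELP, CA4 and ACKR1, like NRP1, ESM1 and SOX17, had 0 lymphatic counts in both libraries and TBX1 0 blood counts, so these ratios depend on the pseudocount. Notch and tip cell genes had 4 of 9 higher and 2 lower, with ESM1 at 8.33, the Notch ligand JAG1 at 3.34 and NOTCH4 at 2.86. The 4 transcription factors higher in blood included SOX17 (6.41) and EPAS1 (3.66), and the 3 lower included TBX1 (-7.90) and FOXC2 (-4.36, with -6.48 and -2.24 in libraries 1 and 2). The BMP list had 4 of 8 higher, with the inhibitory SMAD7 (5.48, with 7.16 and 3.81 in libraries 1 and 2) and SMAD6 (4.22) and the BMP receptors ENG (3.81) and ACVRL1 (2.87). The nitric oxide and caveolae list had 0 of 9 called in either direction.

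Likeness of profile was measured as Pearson's r of log2(CPM + 1) over 33 units, each a class of at least 20 cells in a library, which share libraries and depth. The genes most like the mean of the 10 were FAM110D (0.98), EMCN, CXHXorf36, ROBO4, MYCT1, BCL6B, CYYR1, CCM2L, CDH5 and SHE (0.97). FLT1 was most like CD93 (0.98), CD300LG and TCF15, and PLVAP most like MMRN2 (0.90), BTNL9 and CD300LG. ANGPT2 was most like GJD3 (0.95), FLT4 and MFSD4A, genes other than those near FLT1, and FLT1 and ANGPT2 had an r of 0.45 with each other. FLI1 was most like ABI3 (0.96), TGFB1 and GRAP. SOX18 was most like APOLD1 (0.99), CCM2L and MYCT1, ERG most like MYCT1 (0.97), FAM110D and CXHXorf36, and NOS3 most like CYYR1 (0.97), FAM110D and BTNL9. KDR was most like LOC106502205 (0.96), AFAP1L1 and ABLIM3, TEK most like EMCN (0.93), FAM110D and PEAR1, and TIE1 most like CLDN5 (0.93), ECSCR and ARAP3. EMCN, ROBO4, CDH5, CD93, CLDN5 and ECSCR were among the markers that named the endothelial-like classes. Their likeness over these classes was partly built in and tests nothing.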

How the data were processed

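The authors deposited 1 unfiltered matrix of UMI counts for 4 droplet libraries; the file header names Cell Ranger 5.0.1, and the submitters' processing notes list Cell Ranger 3.1.0 and Seurat 3.1.1. The sources used here do not give the genome build or annotation. Library totals were 43297855 to 82817057 UMIs. A cell was a barcode with more UMIs than the 99th percentile of the top 8000 barcodes divided by 10 (3403 to 5525 UMIs) with at least 500 genes. The top 5% of Scrublet scores in each library were removed, because the automatic threshold marked only 2 and 4 cells in libraries 2 and 4. Cells were clustered with scanpy 1.11.5 (2000 variable genes, 30 components, 15 neighbours, Leiden resolution 1), leaving out the 10 genes and the 77 list genes. A cluster was named from at least 3 markers that stood 2-fold above the other clusters' mean and were seen in at least 10% of its cells, and stayed unnamed where over 0.5 of another lineage's markers were raised or its 10 leading genes went against the name; these limits were set after seeing the data. Endothelial-like sub-clusters raising over 0.5 of another lineage's markers were set aside. The members and lists were chosen with earlier results of these data known. Named are all 10 genes, up to 20 called list genes of highest absolute ratio per comparison, and the genes of most like profile among those with at least 50 counts; VEGFA, VEGFC, ANGPT1, ANGPT4 and the markers of the sub-clusters are partners, ligands or labels of these, chosen after their values were seen. Counts were summed by class and library, with CPM + 1 in ratios; the call rule was tested on simulated data. Intervals are exact (95%), cover counting error only, and a floor is 3 counts. The libraries could be put in no group of the study, so they were not treated as replicates and no p-value was computed; classes were compared within each library. Alternatives covered the minimum of UMIs and counts, the doublet rule, the Leiden resolution (2), the pseudocount (10), centring, subtraction of 10% free RNA, and each library left out.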

Additional observations from a re-analysis of the deposited data

How the results depend on the processing

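Of 100 counts of called genes recomputed under other settings, 90 stayed within 1.5 times the value given and 10 did not; of the single-gene values, 752 kept direction and call, 18 lost the call, 10 gained it and 0 changed sign with a call. Centring on the median of all genes gave 25 list genes higher and 3 lower in endothelial-like cells and changed no member's call. With at least 1000 UMIs per cell, list genes lower in endothelial-like cells numbered 4 in place of 2, members higher in blood than in lymphatic cells 2 in place of 4, and members higher in immune-like cells 1 in place of 0. The automatic Scrublet threshold gave 2 members higher in blood. A minimum of 5 counts gave 45 list genes higher in endothelial-like cells and 1 member, FLI1, higher in immune-like cells. Keeping the sub-clusters with markers of another lineage, chosen after seeing the data, gave 1 list gene lower in endothelial-like cells and 2 members higher in blood. KDR and ERG are the members that lost the blood call in these 3 settings, at log2 ratios of 1.48 and 0.75, 0.90 and 1.07, and 1.06 and 0.98, and ERG lost it with a pseudocount of 10 (0.99). Leaving out each library in turn gave 8 to 9 members and 26 to 34 list genes higher, and 2 to 4 lower, in endothelial-like cells (4 without library 2), 4 to 6 members and 24 to 28 list genes higher in blood, 1 member and 12 list genes lower in blood, and 0 to 1 member higher in immune-like cells (1 without library 2). Without library 2, TEK (1.59) and NOS3 (4.40) were also called higher in blood, on library 1 alone. The cause of these shifts was not tested. Shares of all genes called are given above for the first setting and, at 1000 UMIs, for blood against lymphatic cells. The other counts here have no such share beside them and describe the settings only. No paired analysis was possible because no library could be given a group or replicate number of the study; the ratios between classes were already taken within each library, and no test over libraries was run. Depth limits blood values in library 4, where 1 UMI is 24.2 CPM, and lymphatic values in library 3, where it is 21.1 CPM.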
